A study of Mus musculus with 6 samples.

Results

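The 10 genes described here encode fibrillar collagens and the matrix proteins that mesenchyme lays down with them: Col1a1, Col1a2, Col2a1, Col3a1, Col5a1, Col5a2, Col6a1, Lum, Postn and Lox. They were chosen by name, and every probe set of the array annotated to 1 of these symbols and to no other gene was taken, which gave 19 of the 45101 probe sets in the table. On the brightest probe set of each symbol the 10 genes were set among 18194 genes. The question put to them was whether their RNA differed between embryos that lack the reduced folate carrier RFC1 and their littermates. None of the 10 passed the test. The RFC1-/- embryos did lie further apart from each other than the RFC1+/+ embryos in 9 of the 10 genes, and 1 embryo, the RFC1-/- embryo of litter 1, was the lowest of the 6 in 6 of them.

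The RFC1-/- group was 3 whole embryos at E9.5, each with an open neural tube along brain and spine (craniorachischisis) and with a chorion and allantois that had not fused. The RFC1+/+ group was 3 whole embryos of the same age with a normal neural tube and normal fusion, 1 from each of the same 3 litters. Every array held the RNA of 1 embryo, amplified in 2 cycles. All 6 embryos came from RFC1+/- dams on the inbred SWV background, to which the targeted allele had been moved from a hybrid stock, and all dams were injected with folic acid at 25 mg per kg daily from E0.5, so that neither an embryo without folic acid nor an RFC1+/- embryo was measured. The mutation is carried in the germline and not limited to a tissue, and genotype cannot be told apart from the open neural tube and the missing placental attachment, which all 3 RFC1-/- embryos share. The authors also describe RFC1-/- embryos as delayed in development by mid-gestation, and mutants of this age as tiny. Genotype therefore cannot be told apart from developmental stage and size either.

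Fibrillar collagens are secreted as procollagen trimers, which are hydroxylated and folded in the endoplasmic reticulum, trimmed of their propeptides outside the cell, assembled into fibrils and crosslinked by lysyl oxidases. Type I collagen is built from Col1a1 and Col1a2 chains, type III from Col3a1 alone, and type V, from Col5a1 and Col5a2, starts type I fibrils and limits their width. In the embryo these genes are known from loose mesenchyme, the body wall, the endocardial cushions and the vessel wall, whereas Col2a1, the chain of cartilage collagen, is known from the notochord, the sclerotome and the otic capsule.

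The stretches of 150 bases before the RefSeq start sites (mouse build GRCm38.p6) are shown for the 4 genes in which a short promoter motif was found, because these genes include Postn and Col1a2, in which the RFC1-/- embryo of litter 1 stood lowest, and Col3a1, lower in the RFC1-/- embryo of all 3 litters. Capitals mark the motif. With Lox left out of the search, 6 starts of 5 of the 10 genes were found in the RefSeq table. Col1a2, chr6:4505468-4505617, plus strand, with CCAAT beginning 109 bases before the start:
Col1a2: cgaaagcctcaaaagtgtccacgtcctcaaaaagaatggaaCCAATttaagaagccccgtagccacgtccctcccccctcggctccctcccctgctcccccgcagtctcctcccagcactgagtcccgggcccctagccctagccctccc
Col3a1, chr1:45311388-45311537, plus strand, with TATAAA beginning 117 bases before the start:
Col3a1: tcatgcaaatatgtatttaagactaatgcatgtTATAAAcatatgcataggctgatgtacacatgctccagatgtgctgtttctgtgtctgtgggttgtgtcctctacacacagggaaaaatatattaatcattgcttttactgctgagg
Col5a1, chr2:27886275-27886424, plus strand, with GGGCGG beginning 73 bases before the start:
Col5a1: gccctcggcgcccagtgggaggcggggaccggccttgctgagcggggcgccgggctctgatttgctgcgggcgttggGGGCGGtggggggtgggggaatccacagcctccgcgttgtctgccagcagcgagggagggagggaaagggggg
Postn, the downstream of its starts, chr3:54360957-54361106, plus strand, with TATAAA beginning 26 bases before the start:
Postn: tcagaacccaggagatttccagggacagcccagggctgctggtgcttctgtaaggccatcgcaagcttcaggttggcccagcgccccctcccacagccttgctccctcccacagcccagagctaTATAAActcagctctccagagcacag
All motifs were searched on both strands, and none of them overlaps another. Over the same 150 bases of all 32851 promoters of the table, CCAAT was found in 24.5%, TATAAA in 7.57% and GGGCGG in 28.6%. The Col6a1 start and the other Postn start held none of the 3. A match is a description of the letters and no evidence that a factor binds there.

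Values are log2 RMA expression levels, in which a difference of 1 is a doubling, and they can be compared between embryos for 1 probe set but not between probe sets. The 6 arrays had medians between 5.43 and 5.49 and correlated with each other between 0.984 and 0.996. The RFC1+/+ embryo of litter 1 stood apart on the decidua marker Prl8a2 and the visceral endoderm markers Apob and Cubn. Their values are given with the litter 1 differences below. Slc19a1, the mouse symbol of RFC1, measured 9.97, 10.10 and 9.84 in the RFC1-/- embryos of litters 1, 2 and 3, against 9.11, 9.10 and 8.89 in their RFC1+/+ littermates, on its brightest probe set. It was thus 1.91-fold higher in RFC1-/- embryos (limma adjusted p = 0.00809 over all probe sets), the side opposite to a loss of signal. Its dimmer probe sets gave log2 differences of 1.19 and 0.02. The sources used here do not say which stretch of the gene is missing from the allele. Probe sets that lie elsewhere check nothing, so in these values genotypes, and with them every direction below, rest on the labels. According to the methods, embryos were genotyped from their extraembryonic membranes before RNA was extracted.

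Of the 10 genes, 0 passed an adjusted p of 0.05 in limma with the litter as a block, beside 5.32% of all 18194 genes (3.67% higher and 1.65% lower in RFC1-/- embryos). At an unadjusted p of 0.05 the count was 1 of 10, beside 18.4% of all genes. The lowest adjusted p among the members was 0.239, for Lum. Of the 19 probe sets, 0 passed, beside 2.75% of 45101, with a lowest adjusted p of 0.286 and 2 at an unadjusted p under 0.05. The paired random-variance test that the methods use also called 0 genes and 0 probe sets, with 1 and 2 at an unadjusted p under 0.05. The shares of all genes and probe sets in that test, and of all probe sets at an unadjusted p under 0.05, were not counted. Of the probe sets, 5 varied enough to pass the 1.5-fold variation filter of the methods (1 each of Col1a1, Col1a2, Lum, Postn and Lox), and 0 of these 5 passed its level of 0.001 after adjustment, beside 5.84% of the 2982 that passed the filter.

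A p that misses the threshold does not show equal levels, so the interval of each difference is the more useful measure. The 95% intervals left out a change of 2-fold or more in either direction for 8 of the 10 genes, all but Lum and Postn. The farthest change left inside an interval was 1.33-fold for Col5a2, the smallest of the 10, and 2.94-fold for Postn, the largest. The median difference over the 10 genes was -0.04 with 6 of 10 below 0, beside a median of -0.01 over all genes with 9817 of 18194 below 0.

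**Figure D1:**
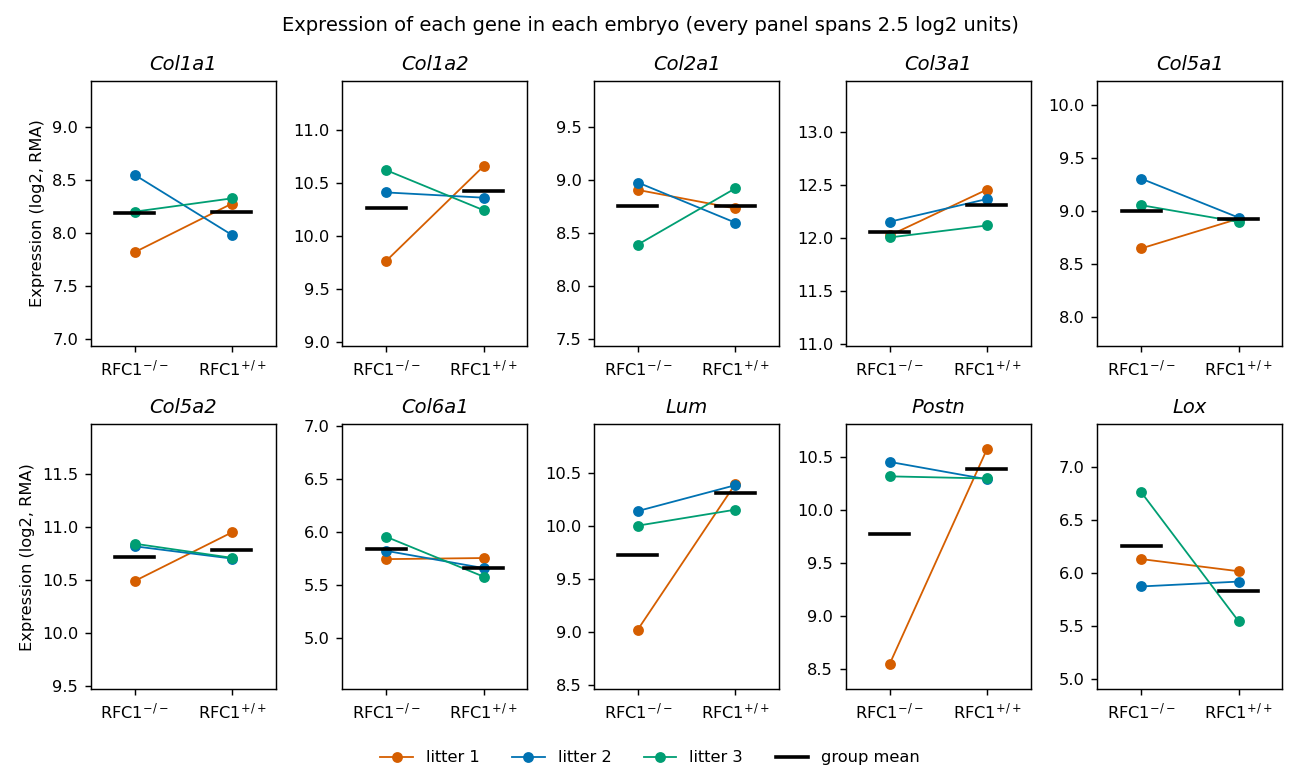
Log2 RMA expression (y axis, each panel 2.5 units tall) of the 10 genes on their brightest probe set, with RFC1-/- embryos at the left and RFC1+/+ littermates at the right of each panel, lines joining littermates and bars at the group means. The RFC1-/- embryo of litter 1 lies at 8.55 for Postn and 9.02 for Lum, below the other 5 embryos, and the groups overlap in every panel except Lum.

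Among the chains that form the main fibrils, Col1a1 measured 7.82, 8.55 and 8.20 in the RFC1-/- embryos of litters 1, 2 and 3, against 8.27, 7.98 and 8.32 in the RFC1+/+ embryos. The groups overlapped, and the RFC1-/- embryos held both the lowest and the highest value of the 6. The mean difference was -0.01 (SE 0.19, 95% interval -0.46 to 0.44, limma adjusted p = 0.995). Its partner in type I collagen, Col1a2, measured 9.77, 10.41 and 10.62 in RFC1-/- embryos, against 10.66, 10.36 and 10.24 in RFC1+/+ embryos. Here the littermates of litter 1 were at opposite ends, with the RFC1-/- embryo the lowest and the RFC1+/+ embryo the highest of the 6, while in litters 2 and 3 the RFC1-/- embryo was the higher. The mean difference was -0.16 (SE 0.23, interval -0.70 to 0.39, adjusted p = 0.820).

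Col3a1, the sole chain of type III collagen, which is laid down with type I in skin and vessel walls, was lower in the RFC1-/- embryo in all 3 litters. It measured 12.03, 12.16 and 12.01 in RFC1-/- embryos and 12.46, 12.37 and 12.12 in RFC1+/+ embryos. The groups overlapped by a small margin, since the RFC1-/- embryo of litter 2 lay above the RFC1+/+ embryo of litter 3. The mean difference was -0.25 (SE 0.11, interval -0.51 to 0.00), with an unadjusted p of 0.0526 and an adjusted p of 0.279 in limma. Of the 10 genes it was the exception in its spread, with an SD of 0.08 in RFC1-/- embryos and 0.18 in RFC1+/+ embryos.

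Type V collagen moved little on average. Col5a1 measured 8.65, 9.30 and 9.05 in RFC1-/- embryos, against 8.93, 8.94 and 8.89 in RFC1+/+ embryos. The 3 RFC1+/+ embryos lay within 0.05 of each other and inside the range of the RFC1-/- embryos, and the difference was 0.08 (SE 0.14, adjusted p = 0.853). Col5a2 measured 10.49, 10.82 and 10.84 in RFC1-/- embryos, against 10.95, 10.70 and 10.71 in RFC1+/+ embryos, a difference of -0.07 (SE 0.14, adjusted p = 0.878). On the brightest probe set of both genes the RFC1-/- embryo was below its littermate in litter 1 and above it in litters 2 and 3. The second Col5a2 probe set, 1450625_at, gave -0.29, -0.19 and 0.11 in litters 1, 2 and 3. The dimmest Col5a1 probe set, 1416741_at, gave -0.09, -0.04 and 0.02, while 1434479_at had the signs of the brightest. In the RefSeq annotation Col5a2 and Col3a1 are neighbours with 0 genes between them. On their brightest probe sets they shared the lower value of litter 1 (-0.46 for Col5a2 and -0.43 for Col3a1) but not the sign in the other litters (0.12 and 0.13 for Col5a2, -0.22 and -0.11 for Col3a1).

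Col2a1, the cartilage chain, measured 8.91, 8.98 and 8.39 in RFC1-/- embryos, against 8.74, 8.60 and 8.92 in RFC1+/+ embryos. It did not share the low value of litter 1: the RFC1-/- embryo was above its littermate in litters 1 and 2 and 0.53 below it in litter 3, where it was the lowest of the 6. The mean difference was 0.01 (SE 0.18, interval -0.41 to 0.43, adjusted p = 0.993). Col6a1, a chain of the beaded filaments of type VI collagen, which lie between the fibrils and are not fibrillar themselves, measured 5.74, 5.82 and 5.95 in RFC1-/- embryos, against 5.75, 5.66 and 5.57 in RFC1+/+ embryos. Its groups overlapped through litter 1 alone, in which the littermates differed by -0.01, and the difference was 0.18 (SE 0.11, interval -0.09 to 0.44, adjusted p = 0.504).

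Lum encodes lumican, a small leucine-rich proteoglycan that binds fibrils and limits their width. It measured 9.02, 10.14 and 10.00 in RFC1-/- embryos, against 10.39, 10.38 and 10.15 in RFC1+/+ embryos. It was the 1 gene of the 10 whose groups did not overlap, although the RFC1-/- embryo of litter 2 and the RFC1+/+ embryo of litter 3 nearly met. Of all genes, 13.4% were likewise lower in RFC1-/- embryos without overlap. The share of all genes higher without overlap is not given. The mean difference was -0.59, or 1.504-fold lower in RFC1-/- embryos (SE 0.23, interval -1.14 to -0.03), with an unadjusted p of 0.0403 and an adjusted p of 0.239 in limma. Most of it came from litter 1, with -1.37, against -0.24 in litter 2 and -0.15 in litter 3. Without litter 1 the difference was -0.20 (adjusted p = 0.819).

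Postn encodes periostin, a matricellular protein of the cushions and of connective tissue that binds collagen and aids the activation of lysyl oxidase. It held the widest range of the 10 genes, 8.55, 10.46 and 10.32 in RFC1-/- embryos, against 10.58, 10.29 and 10.30 in RFC1+/+ embryos. The RFC1-/- embryo of litter 1 was 2.03 log2 units below its littermate (-2.03), while the RFC1-/- embryos of litters 2 and 3 were 0.16 and 0.02 above theirs. The mean difference of -0.61 (SE 0.40, interval -1.55 to 0.32, adjusted p = 0.504) rested on that embryo, and without litter 1 it was 0.09 (adjusted p = 0.974).

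Lox encodes lysyl oxidase, which crosslinks collagen and elastin. It measured 6.13, 5.87 and 6.76 in RFC1-/- embryos, against 6.02, 5.92 and 5.54 in RFC1+/+ embryos. Litter 3 held both ends, with the RFC1-/- embryo the highest and the RFC1+/+ embryo the lowest, a difference of 1.22, against 0.11 in litter 1 and -0.05 in litter 2. The mean difference of 0.43 (1.35-fold higher in RFC1-/- embryos, SE 0.24, interval -0.13 to 0.99, adjusted p = 0.416) was 0.03 without litter 3.

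**Figure D2:**
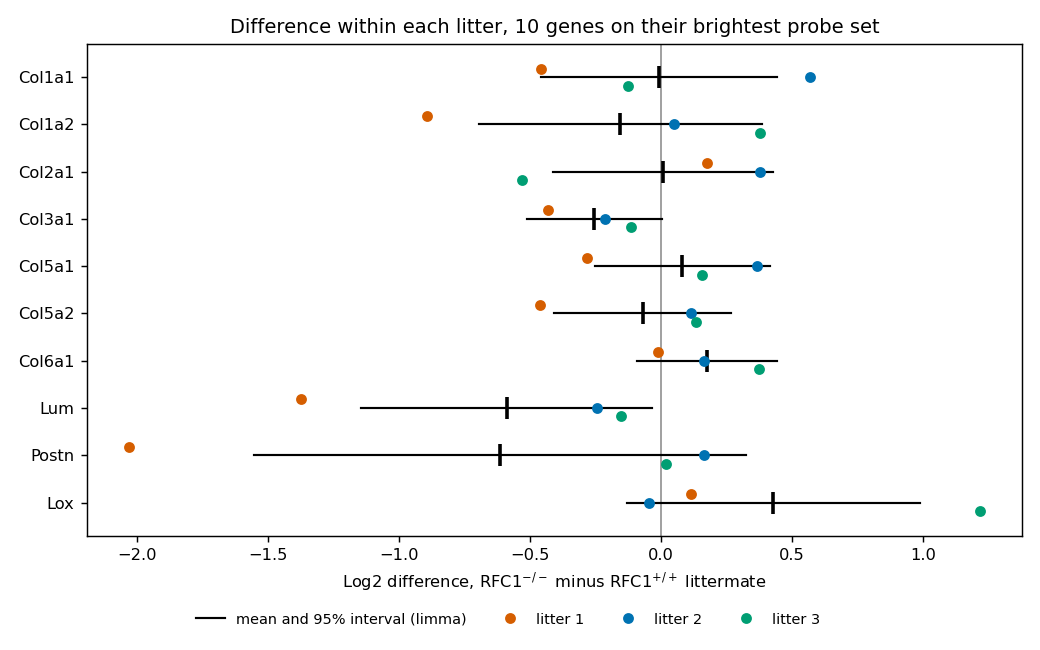
Difference of each RFC1-/- embryo from its RFC1+/+ littermate (x axis, log2 units) for the 10 genes on their brightest probe set, with 1 point per litter and the mean and 95% interval from limma in black. Litter 1 gives the lowest point for 8 of the 10 genes, reaching -2.03 for Postn, and the highest point of the plot, 1.22, is Lox in litter 3.

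Read by litter, the members did not share a direction. In litter 1, 8 of the 10 genes were lower in the RFC1-/- embryo, with a median of -0.45 and a range of -2.03 to 0.17, while 50.6% of all genes were lower in that embryo. In litter 2, 3 of 10 were lower with a median of 0.14, and in litter 3, 4 of 10 with a median of 0.08, while 53.6% and 50.9% of all genes were lower. Col3a1 and Lum were lower in the RFC1-/- embryo of all 3 litters, and no member was higher in all 3. Over all genes the median difference was -0.00 in litter 1, -0.02 in litter 2 and -0.01 in litter 3. The 19 probe sets gave the same picture, with 16 lower in litter 1, 8 in litter 2 and 6 in litter 3.

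The RFC1-/- embryo of litter 1 was the lowest of the 6 for Col1a1, Col1a2, Col5a1, Col5a2, Lum and Postn, 6 of the 10 genes, whereas it was the lowest for 13.4% of all genes. Its RFC1+/+ littermate was the highest of the 6 for 5 members, Col1a2, Col3a1, Col5a2, Lum and Postn, beside 15.1% of all genes. That RFC1+/+ embryo also stood apart on markers of other tissue. Prl8a2, a prolactin family hormone of the decidua, measured 5.30, 4.49 and 7.84 in RFC1-/- embryos, against 11.17, 5.68 and 6.66 in RFC1+/+ embryos. The visceral endoderm markers Apob and Cubn measured 8.17 and 7.90 in it, against 5.22 to 5.27 in the other RFC1+/+ embryos. It was the highest RFC1+/+ embryo for the remaining visceral endoderm markers except Lrp2 and Foxa2. For these it was the lowest of the 6 embryos, with Lrp2 at 6.74 against 6.92 and 7.36 in the other RFC1+/+ embryos, and Foxa2 at 7.76 against 7.78 and 8.06. Among the remaining decidua markers it was the highest RFC1+/+ embryo for Prl3c1, Hand2 and Des and not for Cryab, Bmp2, Wnt4 and Pgr. Its lead there was smaller than for Prl8a2, with Prl3c1 at 3.54 against 3.32 and 3.29 in the other RFC1+/+ embryos. Hand2 was at 9.78 against 9.41 and 9.60, and Des at 6.98 against 6.82 and 6.81. The part of these tissues in the gaps of litter 1 was not tested. The RFC1-/- embryo of litter 3 was the lowest for Col2a1 and Col3a1 (23.2% of all genes) and the RFC1+/+ embryo of litter 3 for Col6a1 and Lox (16.7% of all genes). Leaving out litter 1 turned the sign of the mean difference from below to above 0 for Col1a1 (0.22), Col1a2 (0.21), Col5a2 (0.12) and Postn (0.09), and from above to below 0 for Col2a1 (-0.08). None of the 10 genes passed the threshold without it, in a fit on fewer embryos whose share of all genes called was not counted.

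In the same way, the spread within a genotype was uneven. The SD over 3 embryos was higher in the RFC1-/- group for 9 of the 10 members, beside 48.0% of all genes. The median SD of the members was 0.349 in RFC1-/- embryos and 0.162 in RFC1+/+ embryos, while over all genes it was 0.113 in RFC1-/- embryos and 0.117 in RFC1+/+ embryos. Postn had an SD of 1.07 in RFC1-/- embryos and 0.16 in RFC1+/+ embryos, and Col5a1 had 0.33 in RFC1-/- embryos and 0.02 in RFC1+/+ embryos. The low RFC1-/- embryo of litter 1 enters these SDs, so they are not separate from the litter 1 result. The RFC1-/- embryos of litters 2 and 3 lay close together for Postn (10.46 and 10.32) and Lum (10.14 and 10.00). For Col2a1 and Lox the RFC1-/- embryo of litter 3 lay farthest from the others instead, at 8.39 and 6.76. An SD over 3 values is itself imprecise and the members share the same embryos, so these counts are given as a description, with no test. In whole embryos fewer cells of a type and less RNA per cell cannot be told apart.

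**Figure D3:**
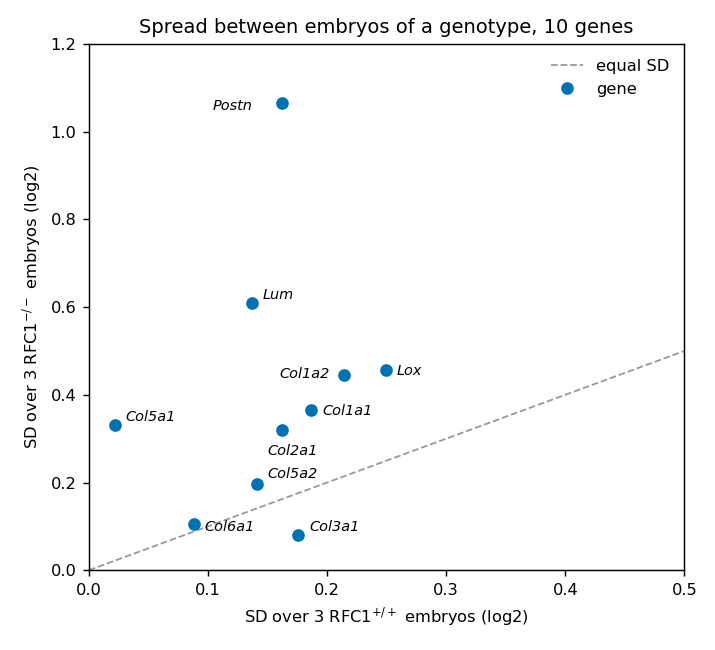
SD of log2 expression over the 3 RFC1-/- embryos (y axis) against the SD over the 3 RFC1+/+ embryos (x axis), with 1 point per gene and a dashed line at equal SD. All genes except Col3a1 lie above the line, with Postn at 1.07 in RFC1-/- embryos and 0.16 in RFC1+/+ embryos.

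Col2a1, Col6a1, Lum and Postn had 1 probe set each, and the other 6 genes had 15 between them. The 3 probe sets of Col1a2 (-0.27 to -0.08), the 2 of Col3a1 (-0.25 to -0.11) and the 2 of Col5a2 (-0.12 to -0.07) each lay on 1 side of 0. Those of Col1a1, Col5a1 and Lox lay on both sides. The dimmer Col1a1 probe set, 1423669_at, measured 5.43, 6.39 and 6.11 in RFC1-/- embryos, against 5.71, 5.73 and 5.59 in RFC1+/+ embryos, a difference of 0.30 (SE 0.18, adjusted p = 0.532), beside -0.01 on the brightest probe set, 1455494_at. Both had the same sign in litters 1 and 2 and differed in litter 3, with 0.52 on 1423669_at and -0.13 on 1455494_at. No direction is given for Col1a1 for that reason.

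The other Col1a2 probe set of high level, 1423110_at, measured 8.09, 8.65 and 8.71 in RFC1-/- embryos, against 9.07, 8.58 and 8.62 in RFC1+/+ embryos, so that it repeated the wide gap of litter 1 (-0.98), with smaller differences in litter 2 (0.07) and litter 3 (0.09). The other Col3a1 probe set, 1427884_at, measured 8.80, 9.12 and 8.80 in RFC1-/- embryos, against 9.13, 9.07 and 8.85 in RFC1+/+ embryos, with the RFC1-/- embryo of litter 2 slightly the higher. For Lox, the brightest probe set, 1416121_at, stood alone in its gap of 1.22 in litter 3, where 1448228_at gave 0.23 and 1437903_at gave -0.16. The last of these measured 3.43, 3.50 and 3.52 in RFC1-/- embryos, against 3.64, 3.66 and 3.68 in RFC1+/+ embryos. It and the Lum probe set were the 2 member probe sets without overlap between groups, each lower in RFC1-/- embryos. Of all probe sets, 11.5% were lower in RFC1-/- embryos without overlap, and the share higher without overlap is not given. Both dim Lox probe sets and the Col1a2 probe set 1446326_at were below 5.47, the median level of all probe sets. The other 16 were above it.

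**Figure D4:**
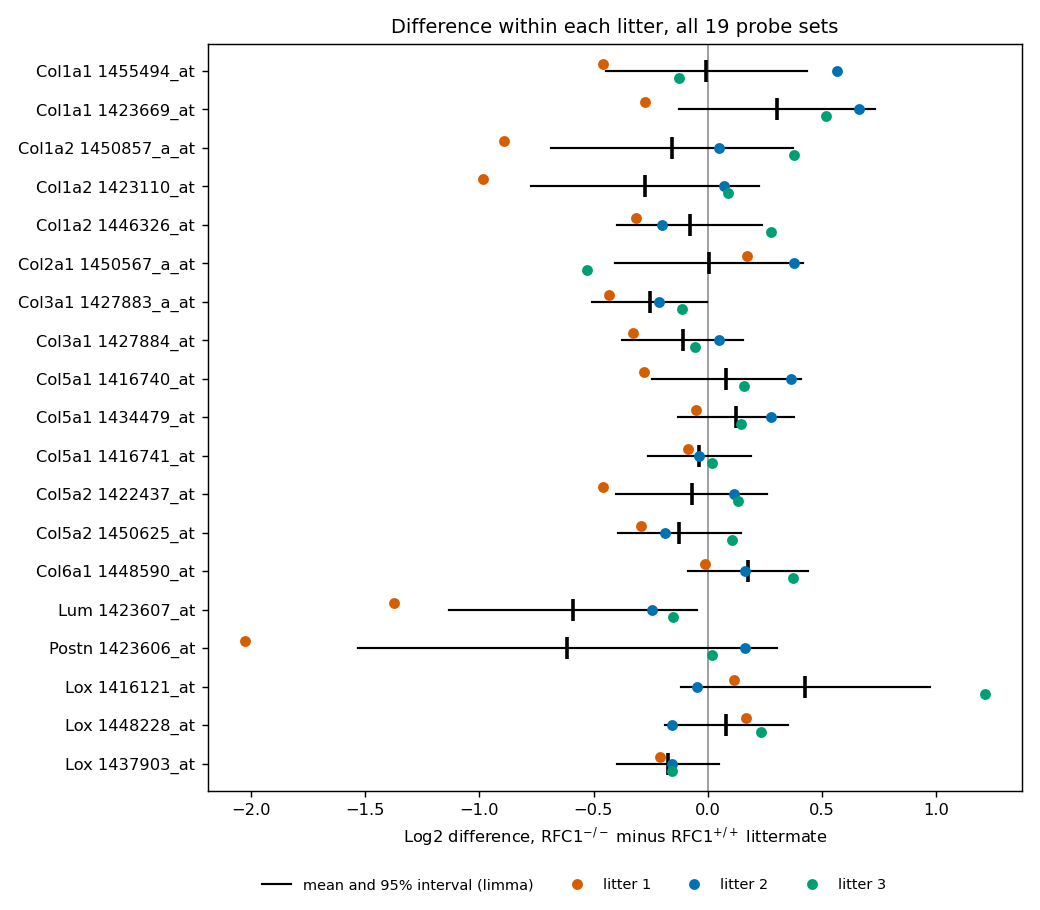
Difference of each RFC1-/- embryo from its RFC1+/+ littermate (x axis, log2 units) for all 19 probe sets of the 10 genes (rows, brightest first within a gene), with 1 point per litter and the mean and 95% interval from limma in black. Litter 1 lies lowest for both bright Col1a2 probe sets, at -0.89 and -0.98, and the 3 Lox probe sets lie on both sides of 0.

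The genes that act around the members were counted in lists on the same fit of 18194 genes, with the share of all genes called, 3.67% higher and 1.65% lower, as the background. The other collagens did not pass either. Of 5 further fibrillar chains (Col5a3, Col11a1, Col11a2, Col24a1 and Col27a1), 0 passed in either direction, with a median of -0.02 and Col27a1 at 0.18 (adjusted p = 0.552) farthest from 0. Of 8 chains of collagens VI, IX, XII, XIV and XVI, 0 passed, with a median of -0.14 and Col14a1, of a collagen that decorates fibrils, at -0.59 (adjusted p = 0.131). Without litter 3, Col14a1 passed (adjusted p = 0.00527). The 9 other small leucine-rich proteoglycans (median 0.00) and 8 measured genes of propeptide removal and crosslinking (median 0.02) also had 0 called, with Bgn, biglycan, at 0.40 (adjusted p = 0.126) and Loxl3, a relative of Lox, at -0.27 (adjusted p = 0.183) farthest from 0. Of 7 measured collagen receptors 0 passed, with a median of -0.18 and Itga1, a collagen-binding integrin chain, at 0.50 (adjusted p = 0.130), which passed without litter 3 (0.66, adjusted p = 0.047).

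In collagen folding and modification, 3 of 17 measured genes were higher in RFC1-/- embryos, 0 were lower, and the median was 0.19, beside -0.01 over all genes. P4ha2, a catalytic subunit of prolyl 4-hydroxylase, measured 9.23, 8.83 and 9.24 in RFC1-/- embryos, against 8.04, 8.36 and 8.65 in RFC1+/+ embryos, with no overlap and a difference of 0.75 (SE 0.15, limma adjusted p = 0.041). Crtap, a partner of the prolyl 3-hydroxylase that acts on fibrillar procollagen, was 0.57 higher (adjusted p = 0.027) and P3h2, another prolyl 3-hydroxylase, 0.49 higher (adjusted p = 0.040). These calls were lost without litter 1, in a fit on fewer embryos, with adjusted p of 0.178 for P4ha2, 0.115 for Crtap and 0.238 for P3h2. The differences in that fit were 0.53 for P4ha2, 0.62 for Crtap and 0.48 for P3h2. Crtap also missed the threshold without litter 2 (0.077) and P3h2 whichever litter was left out (0.085 without litter 2 and 0.060 without litter 3). With an intensity trend P3h2 had 0.054, and with arrays centred on their medians P4ha2 had 0.056.

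Of 22 measured matricellular, elastic and adhesive matrix genes, 3 were higher in RFC1-/- embryos and 0 lower, with a median of -0.03. Fn1, fibronectin, measured 12.68, 12.56 and 12.85 in RFC1-/- embryos, against 11.85, 11.75 and 12.10 in RFC1+/+ embryos, a difference of 0.80 (SE 0.10, adjusted p = 0.010). Sparc, a collagen-binding protein, was 0.87 higher (adjusted p = 0.018) and Ccn1, a secreted matricellular protein, 0.76 higher (adjusted p = 0.014). Without litter 1 the adjusted p was 0.052 for Fn1, 0.020 for Sparc and 0.083 for Ccn1, and without litter 2 it was 0.053 for Sparc. The differences without litter 1 were 0.78 for Fn1, 1.04 for Sparc and 0.70 for Ccn1. On the mean of its probe sets Sparc was 0.51 higher and did not pass (adjusted p = 0.098). All 3 genes were higher in the RFC1-/- embryo in each litter.

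Of 12 measured genes of collagen breakdown 1 passed, in the downward direction, and the median was 0.09. Fap, fibroblast activation protein, a cell-surface protease of mesenchymal cells, measured 5.17, 5.04 and 4.39 in RFC1-/- embryos, against 7.34, 7.46 and 6.86 in RFC1+/+ embryos. The groups were far apart in every litter, and the difference of -2.36 (SE 0.11, adjusted p = 0.002), or 5.12-fold lower in RFC1-/- embryos, remained past the threshold without each litter in turn. All 3 RFC1-/- values lay below 5.47, the median level of all probe sets.

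Among 13 measured regulators of matrix genes, 3 were lower in RFC1-/- embryos, 1 was higher, and the median was -0.09. Prrx1, a homeobox factor of limb and head mesenchyme, measured 8.66, 8.52 and 8.32 in RFC1-/- embryos, against 9.79, 9.57 and 9.33 in RFC1+/+ embryos, a difference of -1.06 (SE 0.10, adjusted p = 0.005). Sox9, which drives Col2a1 in cartilage, measured 7.01, 7.02 and 6.64 in RFC1-/- embryos, against 7.59, 7.93 and 7.24 in RFC1+/+ embryos, a difference of -0.70 (SE 0.11, adjusted p = 0.020), beside 0.01 for Col2a1. Twist1, a mesenchymal transcription factor, was at -0.53 (adjusted p = 0.049) and Tgfb2, a ligand of the TGF-beta family, at 0.77 (adjusted p = 0.011). Prrx1 passed without each litter in turn, whereas without litter 1 the adjusted p was 0.072 for Sox9, 0.280 for Twist1 and 0.066 for Tgfb2. Without litter 2 it was 0.066 for Sox9, and without litter 3 it was 0.080 for Twist1. The differences without litter 1 were -0.75 for Sox9, -0.48 for Twist1 and 0.74 for Tgfb2. Sox9 also missed the threshold without the replicate block (0.062) and on the mean of its probe sets (-0.39, 0.066), and Twist1 in the random-variance test (0.054) and with arrays centred on their medians (0.072). On the mean of its probe sets Prrx1 was at -0.48 and still passed (0.041).

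**Figure D5:**
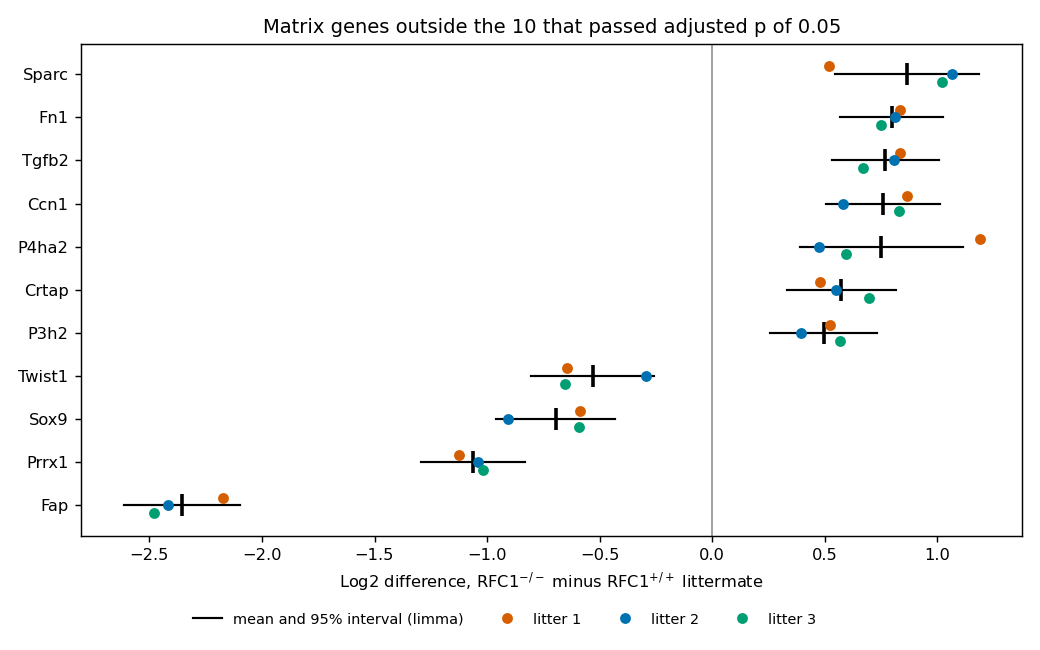
Difference of each RFC1-/- embryo from its RFC1+/+ littermate (x axis, log2 units) for the 11 genes of the matrix lists, members left out, that passed an adjusted p of 0.05, with 1 point per litter and the mean and 95% interval from limma in black. Every litter lies on the same side of 0 in each gene, with Fap farthest from 0 at -2.36.

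Lists of cell type markers moved with genotype on the same arrays, and their part in the members' values was not tested. The summed level below is the log2 of the sum of a list's unlogged values in an embryo. Of 15 embryonic mesenchyme markers, 5 were lower (Alx1, Prrx1, Meox2, Meox1 and Twist1) and 1 was higher (Osr1), and the summed level was 12.90 to 13.14 in RFC1-/- embryos and 13.22 to 13.40 in RFC1+/+ embryos. Of 12 visceral endoderm markers all 12 were higher, with a summed level of 14.44 to 15.82 in RFC1-/- embryos and 11.07 to 12.55 in RFC1+/+ embryos. Higher calls were made for 8 of 10 heart, 5 of 11 parietal endoderm, 2 of 10 allantois and amnion, 2 of 8 decidua, 5 of 10 endothelium, 1 of 7 macrophage and 4 of 6 smooth muscle markers, with 0 lower. The 2 decidua calls were Cryab and Bmp2. Of the decidua markers not called, Hand2, Des and Pgr were above 0 and Prl8a2, Wnt4 and Prl3c1 below 0. Prl8a2 was farthest from 0, at -1.96 (limma adjusted p = 0.441). The macrophage call was Mrc1. Of 8 notochord and sclerotome markers 4 were higher and 2 lower, and of 8 myotome markers 1 was higher and 4 lower. Without litter 1 the higher calls fell to 9 for visceral endoderm, 1 for heart, 2 for parietal endoderm, 1 for endothelium, 1 for smooth muscle, 0 for decidua and 1 for notochord and sclerotome, which also had 0 lower, and 3 mesenchyme markers were lower and 0 higher. Without litter 2 they were 2 for heart, 0 for parietal endoderm and 2 for endothelium. These fits held fewer embryos, and their share of all genes called was not counted. The background of the full fit does not apply to their counts. In litter 1, where 8 members were lower, the median difference of the mesenchyme markers was -0.19, against -0.00 in litter 2 and -0.62 in litter 3, where 4 members were lower.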

How the data were processed

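Total RNA of 6 single embryos was amplified, labelled with biotin and hybridised to Affymetrix mouse arrays. The deposited values are log2 expression levels that the authors computed with RMA (background correction of perfect-match probes, quantile normalization, median polish), 1 per probe set. The sources used here give neither the version of RMA nor the build of the probe annotation. Of 45101 probe sets, 34958 carried 1 gene symbol, 932 several and 9211 none, 34754 matched the RefSeq gene table by gene ID, and probe sets with several symbols were not used. Arrays hold no read depth, and precision is limited by 3 embryos per group.

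limma 3.58.1 in R 4.3.3 (lmFit and eBayes) estimated the change of RFC1-/- over RFC1+/+ embryos with the litter as a block, as in the paired test of the methods, on the brightest probe set of each of 18194 genes and on all probe sets, with Benjamini-Hochberg adjustment over all genes or all probe sets. The pairing comes from the labels, which number littermates alike, and the methods. Same-litter deviations from the group means correlated at 0.10, -0.05 and -0.15, and those of different litters between -0.12 and 0.16, so littermates did not visibly deviate together. The fit was tested on simulated data first. Alternatives were no block, an intensity trend, the random-variance test, a filter on dim probe sets, other scalings, other probe sets per gene and leaving out each litter. The 10 members are all named, and from each list of matrix genes up to 4 genes past the threshold with the largest change, any past it in the other direction, or else the 1 farthest from 0. Members, lists and rules were chosen with earlier results of these data known. Promoter sequences are from RefSeq, and Lox was left out of the search.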

Additional observations from a re-analysis of the deposited data

How the results depend on the processing

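The counts of members called, 0 of 10 genes, 0 of 19 probe sets and 0 of 5 filtered probe sets, were 0 under all 26 alternatives. The shares of all genes or probe sets called under these alternatives were not counted. Without the replicate block the adjusted p was 0.256 for Lum and 0.512 for Postn, and the block changed no call of a member. Of 110 values of the 10 members' log2 differences under the alternatives, 100 kept the direction and 10 turned it. Col1a1 turned with the mean of its probe sets (0.15) and with the probe set of largest change (0.30). The others turned when a litter was left out: Col1a1 then ran from -0.29 to 0.22, Col1a2 from -0.42 to 0.21, Col2a1 from -0.18 to 0.28, Col5a1 from -0.061 to 0.26, Col5a2 from -0.17 to 0.12 and Postn from -1.004 to 0.092. Lum ran from -0.81 to -0.20 and Lox from 0.03 to 0.67. Over all alternatives the lowest adjusted p of a member was 0.097, for Lum without litter 3. Of the differences of the other named genes, 489 kept their side of the threshold, 67 lost it and 2 gained it. Of the list counts 392 held and 48 moved, by over 1.5 times or to or from 0. Arrays give no depth, and Col6a1, with a mean level of 5.75, lay close to the median of all probe sets, 5.47.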

Other observations

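Col4a1 and Col4a2, the main collagen chains of basement membranes, lie outside the 10 genes. Col4a1 measured 11.74, 11.81 and 11.95 in RFC1-/- embryos, against 11.28, 11.03 and 11.09 in RFC1+/+ embryos, a difference of 0.70 (SE 0.12, limma adjusted p = 0.023), and Col4a2 was 0.76 higher (adjusted p = 0.017). The laminin chains Lamb1 (0.57, adjusted p = 0.045) and Lamc1 (0.56, adjusted p = 0.033) were higher as well. These 4 genes and Sparc are the 5 called among 11 markers of parietal endoderm, whose summed level was 13.58 to 13.68 in RFC1-/- embryos and 13.01 to 13.15 in RFC1+/+ embryos. Without litter 1 the adjusted p was 0.044 for Col4a1, 0.062 for Col4a2, 0.277 for Lamb1 and 0.126 for Lamc1, and without litter 2 it was 0.072 for Col4a1, 0.051 for Col4a2, 0.136 for Lamb1 and 0.085 for Lamc1. Without litter 3 it was 0.050 for Lamc1, above the threshold.

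Further matrix genes, chosen after their values were seen, had their lowest value in the RFC1-/- embryo of litter 1, as 6 of the 10 members did, beside 13.4% of all genes. Most genes of the lists they come from had their lowest value in another embryo. Dcn, decorin, differed from its littermate by -1.15 in litter 1, -0.21 in litter 2 and 0.32 in litter 3. Fbln5, an elastic fibre protein, differed by -1.27, 0.09 and 0.68, and Col6a3, a chain of type VI collagen, by -1.10, -0.53 and 0.15. None of the 3 passed (adjusted p = 0.565 for Dcn, 0.871 for Fbln5 and 0.297 for Col6a3), although Col6a3 did without litter 3 (0.023).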
